A study of Solanum lycopersicum with 4 samples.

Results

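The ACC oxidase genes of tomato were examined in pericarp, the fleshy fruit wall, of AtJUB1-OX and wild type plants on 4 GeneChip Tomato Genome Arrays. The members were taken by name. They are the genes whose symbol or synonym in the platform annotation is ACO4, ACO5 or ACO6, which gave 3 of 803 named genes and 5 of 909 named probe sets. A probe set is a group of short oligonucleotides that together measure a single transcript. ACO4 (Entrez Gene 543506) is read by Les.221.1.S1_at and ACO5 (Entrez Gene 543800) by Les.5917.1.S1_at. ACO6 (Entrez Gene 100125909) is read by Les.3225.1.A1_at, Les.3225.2.S1_at and Les.3225.3.S1_at, of which the first, the brightest, stands for the gene.

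The 4 conditions were AtJUB1-OX and wild type at breaker+7 (B+7), when fruits are 7 days past breaker, and AtJUB1-OX and wild type at mature green (MG). Both genotypes are of the variety Moneymaker. AtJUB1-OX plants carry an Arabidopsis NAC transcription factor gene fused to GFP under the 35S promoter, which is active in most tissues, and the study used fruits of a single transgenic line under this name. Each condition has 1 array, and the number of fruits behind an array is not given in the sources used here. No test within a stage or within a genotype can be made from single arrays, and none is given. The error between fruits is unknown, and every difference below describes these arrays only.

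Ethylene starts and drives the ripening of climacteric fruits such as tomato. It is built from methionine: SAM synthetases make S-adenosylmethionine, ACC synthases turn this into 1-aminocyclopropane-1-carboxylate (ACC), and ACC oxidases, iron-dependent dioxygenases of the cytosol, release ethylene from ACC. ACC oxidase is encoded by a small gene family in tomato whose members differ in the organs and stages where they are expressed. ACO1, the member best known from ripening fruit, was not analysed here. EFE, another gene, carries ACO4 as a synonym in RefSeq's gene table for assembly SLM_r2.1, so the name ACO4 is used for 2 genes, and the values below belong to Entrez Gene 543506. Whether probes of a member also bind transcripts of another member was not tested.

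The 3 genes showed 3 different patterns over the arrays. ACO5 was low in both AtJUB1-OX samples and in wild type at MG and was high in wild type at B+7 alone. ACO6 had similar values on 3 arrays and was lower in AtJUB1-OX at B+7. ACO4 was slightly higher in AtJUB1-OX at either stage and slightly lower at B+7 in either genotype. All values are log2 expression values as deposited, and a difference of 1 on this scale is a 2-fold difference. Values of different probe sets are not on a common scale, so each is compared with itself across the arrays.

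**Figure D1:**
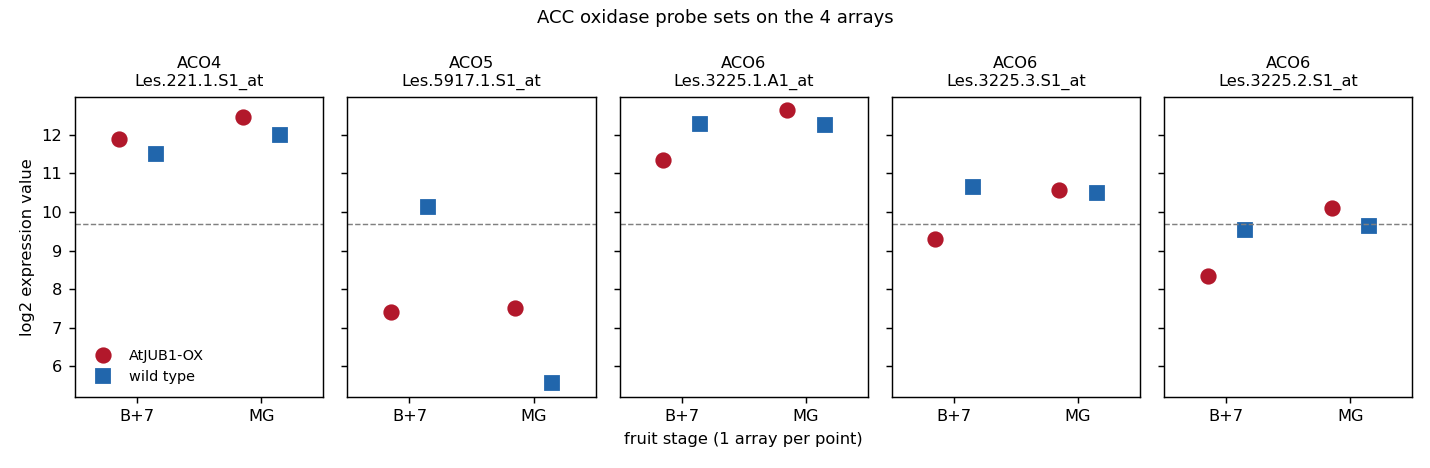
Log2 expression values (vertical axis) of the 5 ACC oxidase probe sets at B+7 and MG (horizontal axis), with 1 point per array, circles for AtJUB1-OX and squares for wild type. The dashed line is the median of the mean signals of all probe sets, 9.70. ACO5 stays at or below 7.52 on both AtJUB1-OX arrays and in wild type at MG, against 10.13 in wild type at B+7, and the 3 ACO6 probe sets share their lowest value in AtJUB1-OX at B+7.

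ACO5 had a log2 value of 7.39 in AtJUB1-OX against 10.13 in wild type at B+7, and of 7.52 in AtJUB1-OX against 5.56 in wild type at MG. The order of the genotypes was thus opposite at the 2 stages. Within its own array, the AtJUB1-OX value lay at percentile 25.9 at B+7 and 26.5 at MG, against 55.7 for wild type at B+7 and 14.4 for wild type at MG. As a check of the genotype labels, 2 of 63 reporter probe sets, which target transgene sequences, were brighter in AtJUB1-OX at both stages by at least 2-fold, and AtJUB1 itself was not analysed here.

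For ACO6, the brightest probe set read 11.35 in AtJUB1-OX against 12.29 in wild type at B+7, and 12.64 in AtJUB1-OX against 12.26 in wild type at MG. Les.3225.3.S1_at read 9.30 in AtJUB1-OX against 10.66 in wild type at B+7, and 10.56 and 10.50 in AtJUB1-OX and wild type at MG. Les.3225.2.S1_at read 8.33 in AtJUB1-OX against 9.52 in wild type at B+7, and 10.12 and 9.63 in AtJUB1-OX and wild type at MG. On each of them the AtJUB1-OX sample at B+7 was the lowest of the 4. After each probe set was centred on its own mean, any 2 of the 3 differed by a root mean square of 0.19 to 0.25 over the 4 arrays.

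ACO4 read 11.91 in AtJUB1-OX against 11.52 in wild type at B+7, and 12.46 in AtJUB1-OX against 11.99 in wild type at MG. Its whole range over the arrays was 0.94, the narrowest of the 5 probe sets. It was highest in AtJUB1-OX at MG and lowest in wild type at B+7. Centred in the same way, ACO4 differed by a root mean square of 0.47 from the brightest ACO6 probe set and of 1.84 from ACO5, and ACO5 and ACO6 differed by 1.66.

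The first comparison sets transcript levels in ripe fruits of AtJUB1-OX against those of wild type. At B+7, ACO5 was lower in AtJUB1-OX by a log2 difference of -2.74, or 6.69-fold. ACO6 was lower by -0.93, or 1.91-fold, on its brightest probe set. The other 2 ACO6 probe sets gave -1.19 and -1.36, so that the mean over the 3 was -1.16 ± 0.22 (SD between probe sets, a technical spread). ACO4 was higher by 0.39, under the 1.5-fold cut-off (log2 0.58) that the study used. ACO5 and ACO6, 2 of the 3 genes, were thus at least 1.5-fold lower and none was higher, where 6.13% of all 10101 probe sets were lower and 3.53% higher by as much.

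Dim probe sets passed this cut-off more often. Among those with a mean signal below the median, to which ACO5 belongs, 8.63% were at least 1.5-fold lower in AtJUB1-OX at B+7, and among those at or above it, to which the brightest ACO6 probe set belongs, 3.62% were. At least 4-fold lower in AtJUB1-OX at B+7, as ACO5 was, were 0.416% of all probe sets and 0.733% of those below the median signal. Probe sets of one gene give a measure of technical spread. Their pooled SD for this comparison was 0.26 over 82 genes with several probe sets, and 0.098 over 35 genes with several probe sets at or above the median signal. The ACO6 difference is larger in size than either. The spread between fruits is in neither value.

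Ripening markers gave no such genotype difference at that stage. Of 9 listed markers of ripening fruit, 7 had a probe set, among them RIN and TDR4, MADS-box regulators of ripening, PG2, a pectin-degrading polygalacturonase, and Psy1, a phytoene synthase of carotenoid formation. All 7 were within 1.5-fold at B+7, as were most probe sets, of which 3.53% were higher and 6.13% lower by as much. The summed signal of the 7 was 16.60 in AtJUB1-OX against 16.55 in wild type on the log2 scale. In both genotypes 6 of the 7 were at least 1.5-fold higher at B+7 than at MG, so the labelled stages show in the markers. Over all probe sets, 19.1% in AtJUB1-OX and 13.9% in wild type were higher by as much. All 3 measured markers of green tissue were within 1.5-fold as well, with summed signals of 10.44 in AtJUB1-OX against 10.59 in wild type. Of the other lists, no seed marker of 4 was paired with a probe set, and of 3 flower markers only TDR6 was, at -0.48 between genotypes at B+7. Controls for 25S and 17S rRNA were brighter in AtJUB1-OX at that stage by 1.20 and 0.48, and their part in the ACO5 and ACO6 differences was not tested. In bulk pericarp, fewer cells that express a gene and less RNA of it per cell cannot be told apart.

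At MG the picture differed. ACO5 was higher in AtJUB1-OX by 1.96, or 3.88-fold, while ACO6 differed by 0.38 and ACO4 by 0.47, both under the cut-off. The 3 ACO6 probe sets ranged between 0.067 and 0.49, with a mean of 0.31 ± 0.22 (SD between probe sets), and none reached 1.5-fold. One of the 3 genes was therefore at least 1.5-fold higher and none was lower, against 6.67% and 6.74% of all probe sets. Below the median signal, 8.4% were at least 1.5-fold higher. The ACO5 difference at MG sets 2 dim values against each other. With all values under the 25th percentile (log2 7.29) raised to it, it was 0.22 and no ACO gene passed the cut-off.

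The markers also differed at MG. Of the 7 of ripening fruit, PG2 was higher in AtJUB1-OX by at least 1.5-fold and 4 (RIN, TDR4, E8 and EXP1) were lower. Over all probe sets, 6.67% were higher and 6.74% lower. E8 differed by -5.29 and EXP1, an expansin gene, by -4.34. The summed signals of 14.86 in AtJUB1-OX against 15.22 in wild type hide this, since 2A11, the brightest of the 7 at this stage, differed by 0.13. The 3 of green tissue were all lower, at 12.56 in AtJUB1-OX against 13.24 in wild type. For 4 control transcripts the signal of the 3' probe set exceeded that of the 5' one by more in AtJUB1-OX at MG, with an excess of 0.13 for GAPDH up to 0.53 for EF1a. This gap tracks RNA integrity. At B+7 these gaps differed by -0.10 to 0.04. The part of these measures in the ACO5 difference was not tested.

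**Figure D2:**
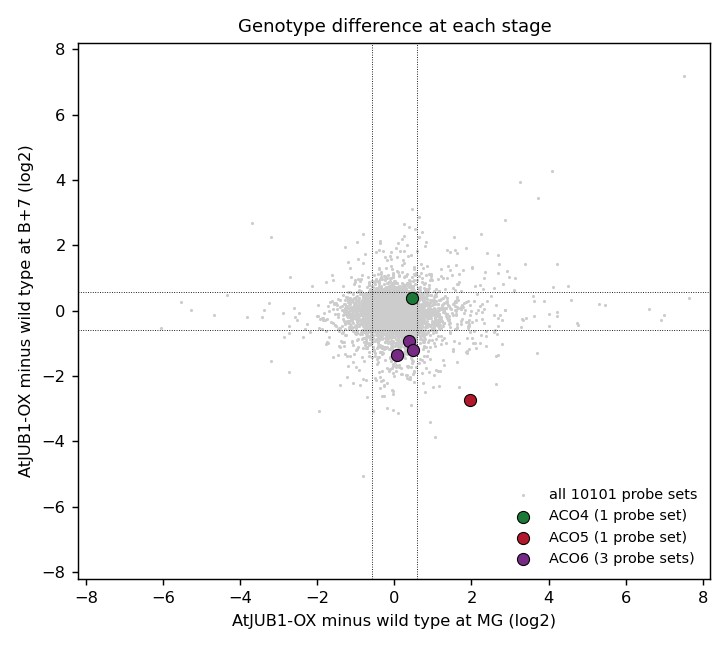
Genotype difference, AtJUB1-OX minus wild type in log2 units, at MG (horizontal axis) and at B+7 (vertical axis) for all 10101 probe sets (grey points) and the ACC oxidase probe sets (coloured points), with dotted lines at 1.5-fold. ACO5 lies at 1.96 and -2.74, away from the bulk of the points, the 3 ACO6 probe sets lie at 0.067 to 0.49 and -0.93 to -1.36, and ACO4 lies inside the dotted lines.

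The difference between genotypes at MG minus that at B+7 was 4.70 for ACO5, 1.31 for ACO6 and 0.08 for ACO4. The other ACO6 probe sets gave 1.43 and 1.68. Over all probe sets this quantity had a median of -0.05 and an SD of 0.68. ACO5 was the only one of the 3 genes past 1.5-fold in opposite directions, higher at MG and lower at B+7, as were 107 probe sets, or 1.06% of all. With a 4-fold limit at B+7, a pattern set after the ACO5 values were known, 9 probe sets remained, or 0.0891%. With the floor at the 25th percentile, this quantity was 2.97 for ACO5 in place of 4.70, and its value of 0.22 at MG ended the crossing.

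The same arrays, read by genotype, show how the genes behaved over ripening. The 4 comparisons share their arrays, so these values restate the same measurements from another side and add no evidence of their own. In AtJUB1-OX, ACO5 had nearly the same value at both stages (-0.12 for B+7 minus MG), just above the 25th percentile each time. In wild type it was higher at B+7 by 4.58, or 23.9-fold, and by 2.84, under 16-fold, with values below the 25th percentile raised to it. The single low value in wild type at MG enters both this difference and that of 1.96 between genotypes at MG. A higher value at B+7 in wild type by at least 16-fold was found for 35 probe sets, 0.347% of all. Of these, ACO5 and 1 other were within 1.5-fold in AtJUB1-OX (0.0198% of all), a pattern likewise set after the values were known. At the ordinary cut-off, 4.21% were higher at B+7 in wild type and within 1.5-fold in AtJUB1-OX.

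ACO6 went the other way round. It was lower at B+7 than at MG in AtJUB1-OX by -1.29, or 2.44-fold, and differed by 0.03 between the stages in wild type. Its 3 probe sets lay between -1.78 and -1.27 in AtJUB1-OX and between -0.10 and 0.16 in wild type. They read 1 gene on the same arrays, so these ranges hold technical spread only. A gene within 1.5-fold in wild type and at least 1.5-fold lower at B+7 in AtJUB1-OX was no rarity on these arrays, with 5.41% of all probe sets.

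ACO4 was lower at B+7 than at MG in both genotypes, by -0.55 in AtJUB1-OX against -0.47 in wild type, just under the cut-off. It stayed within 1.5-fold in all 4 comparisons, as did 54.5% of all probe sets. When the arrays were instead scaled so that the 21 bacterial spike controls matched, its differences became -0.73 in AtJUB1-OX and -0.71 in wild type and passed the cut-off. The median spike signal was 11.36 at B+7 against 11.18 at MG in AtJUB1-OX, and 11.39 at B+7 against 11.16 at MG in wild type.

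In AtJUB1-OX, 1 of the 3 genes (ACO6) was thus at least 1.5-fold lower at B+7 and none was higher, against 16.8% and 19.1% of all probe sets, and 12.9% lower among those at or above the median signal. In wild type, 1 (ACO5) was higher and none was lower, against 13.9% and 14.2%, and 16.5% higher among those below the median signal. With matched spike controls, the share of higher ones among all probe sets past the cut-off was 37.6% in AtJUB1-OX in place of 53.2%, and 29.9% in wild type in place of 49.6%. Probe sets of one gene also varied more for these comparisons than between genotypes, with a pooled SD of 0.74 in AtJUB1-OX against 0.61 in wild type over all 82 genes. The 3' to 5' gap of the 4 control transcripts differed between the stages by -0.05 (GAPDH) to -0.95 (EF1a) in AtJUB1-OX, and by -0.46 (EF1a) to 0.08 (actin) in wild type. Its part in the ACO differences was not tested.

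**Figure D3:**
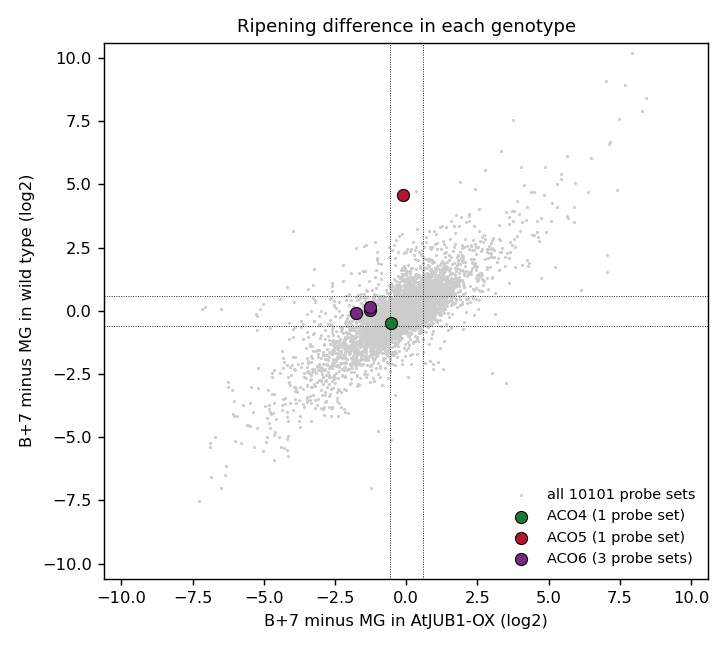
Log2 difference between B+7 and MG in AtJUB1-OX (horizontal axis) and in wild type (vertical axis) for all 10101 probe sets (grey points) and the ACC oxidase probe sets (coloured points), with dotted lines at 1.5-fold. ACO5 lies near 0 in AtJUB1-OX and at 4.58 in wild type, above the band that most probe sets form, while ACO6 lies left of the dotted lines at a height near 0.

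The ACO genes were then set beside the other genes of ethylene formation and response. The list, chosen with earlier results of these data known, gave 48 genes with a probe set besides the ACO genes. At MG, AtJUB1-OX exceeded wild type by at least 1.5-fold for 17 of the 48 and fell short by as much for 1. Over all probe sets, 6.67% were higher and 6.74% lower. The median was 0.22 for the list, against -0.05 over all probe sets. At B+7, 2 were higher and 5 lower, against 3.53% and 6.13% of all probe sets, with a median of -0.16 against 0.00. Among the 31 genes at or above the median signal, 8 were higher and 1 lower at MG, against 1 higher and 2 lower at B+7. Over all probe sets at or above the median signal, the shares at MG were 4.95% higher and 3.48% lower, and those at B+7 were 1.19% higher and 3.62% lower. The counts are over a chosen list on single arrays.

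Upstream of ACC oxidase, the SAM synthetase gene SAM3 followed ACO5 and ACO6 in direction, with 0.82 at MG and -0.70 at B+7, and SAM1 differed by 0.04 and 0.17. Of 8 ACC synthase genes, 3 passed the cut-off upwards at MG and none downwards, against 1 upwards and 2 downwards at B+7. The shares over all probe sets were 6.67% upwards and 6.74% downwards at MG, and 3.53% and 6.13% at B+7. ACS1A (2.80 at MG and -1.02 at B+7) and ACS3 (1.05 and -1.08) had the same order of signs as ACO5. ACS3, however, lay under the floor of log2 7.29 on every array, between 3.56 and 5.20, so its differences set dim values against each other. ACS1A lay under the floor in wild type at MG only, at 5.69. ACS6, which lies at or above the median signal, stayed within 1.5-fold with 0.56 and -0.44. ACS2 and ACS4, the ACC synthases known for their induction in ripening, were higher at B+7 than at MG in both genotypes, ACS2 by 4.86 in AtJUB1-OX against 5.67 in wild type, and ACS4 by 5.94 and 5.04. None of the 3 ACO genes measured here was higher at B+7 in both genotypes.

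Downstream, among 10 genes of ethylene receptors and of CTR kinases, which act next to the receptors, 4 were higher at MG and none passed the cut-off at B+7. ETR6 differed by 1.22 and -0.53, ETR4 by 0.93 and -0.01, and ETR1 by 0.05 and -0.05. Of 6 genes listed for signalling, none passed the cut-off at MG, and EIL2, an EIN3-like transcription factor gene, differed by -0.01 at MG and by -0.79 at B+7. Of 10 ethylene response factor genes, 6 were higher at MG and 1 was higher at B+7, namely PTI5 (1.57 and 1.85). Of 12 genes listed as ethylene-responsive in fruit, 3 were higher and 1 lower at MG, and 1 was lower at B+7. The last, ER5, was higher at MG (2.13) and lower at B+7 (-1.15), again the order of signs of ACO5. E8 differed by -5.29 at MG and 0.02 at B+7. Beside all these counts stand the shares over all probe sets, 6.67% higher and 6.74% lower at MG, and 3.53% and 6.13% at B+7.

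**Figure D4:**
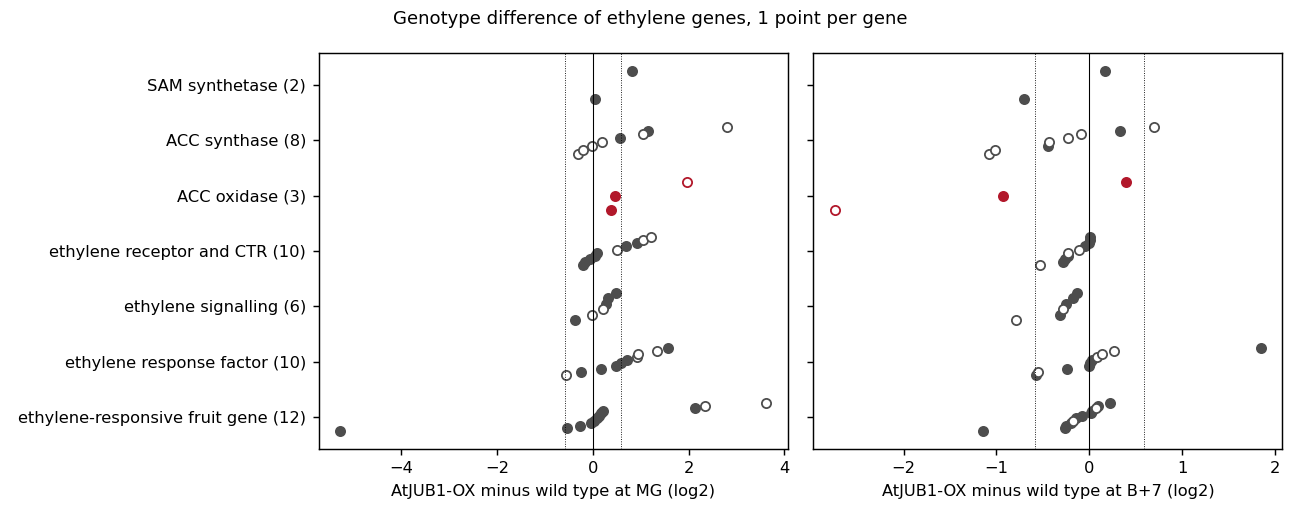
Genotype difference, AtJUB1-OX minus wild type in log2 units, at MG (left) and at B+7 (right, on its own scale) for the 3 ACC oxidase genes (red) and 48 other ethylene genes (grey), 1 point per gene by group. Open points are genes with a mean signal below the median, dotted lines mark 1.5-fold, and ACO5 is the lowest point of all groups at B+7.

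Of the 48 genes, 4 (ACS1A, ACS3, SAM3 and ER5) shared the crossing of ACO5, as did 1.06% of all probe sets. In these 4, AtJUB1-OX was above wild type at MG and below it at B+7 by at least 1.5-fold each. Of these, ACS3 lay under the floor of log2 7.29 on every array, and ACS1A did in wild type at MG. SAM3 and ER5 lay above the floor on every array. Another 9, among them ETR5, ETR6 and ERF2, were at least 1.5-fold higher at B+7 in wild type and within 1.5-fold in AtJUB1-OX. ACO5 had this pattern, as did 4.21% of all probe sets. The differences in wild type were 1.25 for ETR5, 1.69 for ETR6 and 1.88 for ERF2, against 4.58 for ACO5. In AtJUB1-OX they were -0.04 for ETR5, -0.06 for ETR6 and 0.58 for ERF2, against -0.12 for ACO5. ERF2, and CTR1 of the same 9, thus rose in AtJUB1-OX as well, by just under the cut-off. The ACO6 pattern was within 1.5-fold in wild type and lower at B+7 in AtJUB1-OX. It was shared by 5.41% of all probe sets and by 6 of the 48 (ACS3, ACS6, EREB, EIL2, ER43 and ER5). Of these, ACS3 and EREB lay under the floor on every array, as did ACS8, which is among the 9 genes above.

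Among all other named genes, those with the most similar pattern were sought by the root mean square difference of the 4 log2 values, each probe set centred on its own mean. For ACO6 they were THM6, a MYB gene (0.06), and the expansin genes EXPA6 (0.11) and exp18 (0.13), all 3 with a signal below the median. THM6 read 5.99 in AtJUB1-OX against 6.93 in wild type at B+7, and 7.42 in AtJUB1-OX against 6.94 in wild type at MG. THM6 and EXPA6 were also among the 3 nearest genes for the third ACO6 probe set, Les.3225.3.S1_at, and THM6 was the nearest for Les.3225.2.S1_at.

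For ACO4 the nearest were LOC543645 (0.03), LOC544223 (0.10) and IAA7, an Aux/IAA gene of auxin signalling (0.10), the last 2 dim. LOC543645 read 11.21 in AtJUB1-OX against 10.82 in wild type at B+7, and 11.70 in AtJUB1-OX against 11.32 in wild type at MG. For ACO5 the nearest were LOC544060 (0.72), LOC543607 (0.86) and THT1-3 (0.89). The measure is not scaled to the range of a gene, which was 4.58 for ACO5 against 0.94 for ACO4 and 1.29 for ACO6. The larger distances of ACO5 therefore do not show by themselves that its pattern was less shared. LOC544060 came closest in direction, with 1.19 between genotypes at MG and -1.84 at B+7. Likeness over 4 arrays is a weak measure and says nothing of shared function or control.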

How the data were processed

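Pericarp RNA was hybridized to 4 GeneChip Tomato Genome Arrays, 1 for each genotype and stage. The deposited values are on a log2 scale, 1 per probe set, and were corrected, normalized and summarized by the authors. GCRMA and RMA appear in the processing notes of the submitters, with roles, order and versions not given in the sources used here. Of 10209 probe sets, 108 controls were left out and 10101 analysed, of which 909 carry 1 gene name in the platform annotation of 2007. The 63 reporter probe sets were kept among the 10101. Of the 909, 885 were found in RefSeq's table for assembly SLM_r2.1, from which only names were taken. Differences of values as deposited were counted at the study's 1.5-fold cut-off. A gene is represented by its probe set with the highest mean. Precision is limited by the number of arrays.

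The named genes are the members, the 3 nearest in pattern to each, and listed ethylene genes with large or small differences. Members and lists were chosen with earlier results of these data known. The counting was tested on simulated data. Python 3.11.15 with pandas 2.3.3 and numpy 2.4.6, and R 4.3.3 with limma 3.58.1 were used. Alternatives were centring on the median, quantile normalization, loess (span 0.3), a floor at the 25th percentile, a 2-fold cut-off, other probe sets and spike scaling. Promoter and protein comparisons were planned and not run.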

Additional observations from a re-analysis of the deposited data

Results flagged for a closer look

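ACO5 and ACO6 were marked because the difference between AtJUB1-OX and wild type had opposite signs at the 2 stages, with 1 array on each side, so the change of direction was not tested. For ACO5 it was 1.96 at MG and -2.74 at B+7, which differ by 4.70. Read as ripening, the B+7 minus MG difference of ACO5 was -0.12 in AtJUB1-OX against 4.58 in wild type, a gap of -4.70 that restates the same 4 values. For ACO6 the genotype differences were 0.38 at MG and -0.93 at B+7, which differ by 1.31, and the ripening differences of -1.29 in AtJUB1-OX against 0.03 in wild type differ by -1.31. The ACO6 value at MG lies under 1.5-fold on all 3 probe sets, so only its lower value at B+7 passes the cut-off.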

How the results depend on the processing

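Of 90 values of single genes under the alternatives, 83 moved by less than the technical SD pooled over genes with several probe sets. Another 7 moved by more, and 0 of those past the cut-off changed sign. Between stages this SD was 0.74 in AtJUB1-OX and 0.61 in wild type, against 0.26 and 0.24 at or above the median signal. The limit is therefore wide for ACO4 and the brightest ACO6 probe set, which lie there. Part of the 83 was also fixed in advance. A floor at the 25th percentile cannot move differences between values above it, as all those of ACO4 and ACO6 are. Raising values under the 25th percentile to it gave ACO5 differences of 0.22 at MG and 2.84 in wild type between stages. It gave 2.97 for the genotype difference at MG minus that at B+7. Of the ACO5 values, only that in wild type at MG, 5.56, lies under the floor. Both AtJUB1-OX values, 7.39 at B+7 and 7.52 at MG, lie just above it. The floor therefore could not move the ACO5 differences of -2.74 between genotypes at B+7 and -0.12 between stages in AtJUB1-OX. This alternative left 0 ACO genes higher at MG. The other ACO6 probe sets gave 0.067 at MG, -1.36 and -1.19 at B+7, and 1.68 for the difference between stages. With a 2-fold cut-off, 1 ACO gene (ACO5) was lower at B+7. With matched spike controls, an alternative chosen after seeing the data, as was the use of other ACO6 probe sets, 2 ACO genes were lower at B+7 than at MG in AtJUB1-OX and 1 in wild type, and the median of all probe sets shifted to -0.09 and -0.20. No other count changed. ACO5 at B+7 stayed between -2.74 and -2.67 between genotypes under every scaling tried. No paired analysis was possible because each comparison within a stage or genotype sets 1 array against 1 and the labels give no shared replicate numbers, and an additive fit of genotype and stage over the 4 arrays was not run. Comparisons of promoters and proteins were not run. Low signal limits ACO5 in wild type at MG and in AtJUB1-OX at both stages.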
